A study of Mus musculus with 9 samples.

Results

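The 10 genes described here encode the core of the T cell receptor machinery: the CD3 chains (Cd3d, Cd3e, Cd3g) and the zeta chain (Cd247), the coreceptors (Cd4, Cd8a, Cd8b1), the kinase Zap70, and the adaptors Lat and Lcp2. They were taken as the probe sets whose array annotation gives 1 gene symbol, that of one of these genes. All 10 were found, with 21 of the 34945 probe sets that name 1 gene, and they are 10 of the 18193 genes measured. The brightest probe set (highest mean over the 9 arrays) stands for its gene, and the other 11 probe sets are given beside it.

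All T cells came from C57BL/6 mice and were cultured for 24 h in one of 3 ways. Allogeneic cultures held BALB/c dendritic cells at 20 T cells per dendritic cell. Anti-CD3/CD28 cultures held 0.1 µg/ml of antibodies against CD3e and CD28 in place of dendritic cells. Syngeneic cultures held C57BL/6 dendritic cells at the same ratio of 20. T cells were then purified by magnetic negative selection with CD11c beads and crosslinked with ultraviolet light. Every array, whatever the culture, measured RNA recovered by crosslinking and immunoprecipitation with an antibody to AGO, the Argonaute proteins that carry microRNAs, and amplified with a kit made for picogram amounts. Each culture has 3 arrays, numbered biological rep 1 to 3, and the labels name no animals or cultures behind them, nor the age or sex of the mice. The p-values therefore measure only the spread between these arrays, which may in part be technical. A signal here is a log2 value of RNA bound in the AGO precipitate, and no array of total RNA was used, so the abundance of a transcript and its recovery with AGO are not separated. Nor can fewer cells of a type be told apart from less RNA per cell.

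As background, the T cell receptor has no enzyme of its own. Its antigen-binding chains are held with CD3 dimers and a zeta dimer, whose cytoplasmic tails carry the tyrosine motifs that the kinase LCK phosphorylates. CD4 binds MHC class II and CD8, a dimer of CD8α with CD8β or with itself, binds class I, and both bring LCK to the receptor. ZAP70 docks on the phosphorylated tails and phosphorylates LAT and SLP76 (encoded by Lcp2), which assemble the enzymes that raise calcium and activate RAS. Antibodies to CD3e and CD28 engage the receptor complex and its costimulator directly, while allogeneic dendritic cells engage the receptor through foreign MHC molecules.

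Several features of the arrays touch every value below. The replicate number accounted for 85.0% of the variance over all genes and the culture for 6.59%, so differences are given within each number and were tested with the number as a block. Number 1 held nearly alike arrays of allogeneic and anti-CD3/CD28 culture (SD of their difference over all genes 0.103, against 0.493 in number 2 and 0.680 in number 3, log2). Values of a gene can also be exactly equal between arrays of one number (17.9% to 49.0% of genes) and never between numbers, and 10 of the 90 such pairs for the 10 receptor genes were equal (11.1%, against 29.1% over all genes). An equal value is therefore not a measured lack of difference. In number 2 all 3 arrays carried stromal transcripts, with Col1a2 (a collagen chain) at 9.23 in allogeneic, 8.79 in anti-CD3/CD28 and 11.31 in syngeneic culture, against 4.00 to 4.37 in the other numbers. The part of any of these in the results was not tested.

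All 10 genes lay above the array's median signal on all 9 arrays, as did all 7 measured markers of another T cell list (Cd2, Cd5, Cd6, Cd28, Thy1, Lef1 and Bcl11b). Marker genes of macrophages were lower in both activated cultures: all 11 measured genes had negative mean differences, and their mean signal ran from 5.16 to 5.90 in allogeneic and 4.30 to 5.77 in anti-CD3/CD28, against 6.49 to 7.36 in syngeneic arrays (log2). Only 2 of the 11 were above the array median on every array, and C1qa and Itgam were at or under it throughout. In number 1, 1 was higher, 8 lower and 2 equal in both comparisons with syngeneic culture. Csf1r, the receptor for macrophage growth factor, differed by −3.67 ± 0.47 (SE) between allogeneic and syngeneic and by −4.60 ± 0.47 between anti-CD3/CD28 and syngeneic arrays. Mean signals of 13 dendritic cell markers ran from 7.73 to 9.12, from 7.60 to 7.63 and from 7.93 to 9.18 in allogeneic, anti-CD3/CD28 and syngeneic arrays, with 9 of the 13 above the array median on every array and Xcr1 and Cd209a at or under it throughout. Against syngeneic culture 12 of the 13 were lower in both activated cultures, with medians of −0.23 for allogeneic and −0.75 for anti-CD3/CD28. The chemokine Ccl17 had the largest of these differences, −3.13 ± 1.27 for anti-CD3/CD28 (0.00, −3.40 and −6.01 in numbers 1 to 3) and −0.20 ± 1.27 for allogeneic minus syngeneic. Of 6 measured NK cell markers, Ncr1, Klra8 and Klre1 were at or under the median on every array, while Eomes and Klrd1, which activated and memory CD8 T cells also express, were above it on all 9. Eomes differed by 0.49 ± 0.22 for allogeneic and 1.10 ± 0.22 for anti-CD3/CD28 minus syngeneic, higher in every number. Klrd1 went the other way for allogeneic minus syngeneic, −0.64 ± 0.36, lower in every number (−0.19, −0.74 and −0.99). For anti-CD3/CD28 minus syngeneic Klrd1 differed by 0.08 ± 0.36 (−0.60, 0.52 and 0.30). The mean of the 6 ran from 5.55 to 6.05 in allogeneic, 5.88 to 6.43 in anti-CD3/CD28 and 5.55 to 6.25 in syngeneic arrays. B cell markers had mean signals of 5.97 to 7.29, 5.81 to 7.74 and 6.30 to 7.72 in the same order of cultures. Their mean hides Ighm, the heavy chain of IgM, at 10.68 to 13.76 over the arrays. Ighm was lower than in syngeneic culture in every number, by 0.67 (SE 0.22) in allogeneic and 1.33 (SE 0.22) in anti-CD3/CD28. Of the 7 B cell markers measured, 1 was higher and 6 lower in allogeneic, and 3 higher and 4 lower in anti-CD3/CD28, than in syngeneic culture. Granulocyte and mast cell markers ran from 4.53 to 6.13, 4.24 to 5.07 and 4.62 to 6.07, and platelet and erythroid markers from 4.66 to 5.97, 4.67 to 5.70 and 4.79 to 5.99.

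No receptor gene passed the test in any comparison. In limma's moderated test with Benjamini-Hochberg adjustment over 18193 genes, 0 genes of any kind reached an adjusted p of 0.05 (0% of genes in each comparison), and the 10 genes had adjusted p-values of 0.709 to 0.972 for allogeneic minus syngeneic, 0.727 to 0.960 for anti-CD3/CD28 minus syngeneic and 0.928 to 1 for allogeneic minus anti-CD3/CD28. At an unadjusted p of 0.05, 825, 1236 and 205 genes passed in these comparisons, among them 0, 1 and 0 of the receptor genes. The 1 gene was Cd8b1, higher in anti-CD3/CD28 than in syngeneic culture, where 2.23% of all genes passed higher and 4.56% lower. The shares over all genes were 2.33% higher and 2.21% lower for allogeneic minus syngeneic, and 0.792% higher and 0.335% lower for allogeneic minus anti-CD3/CD28. The 95% intervals around the differences reached from −1.11 to 1.49, from −0.88 to 1.85 and from −1.27 to 0.59 (log2). These are the lowest and highest bounds over the 10 genes. Single genes had narrower intervals, such as −0.27 to 0.33 for Cd3e in allogeneic minus syngeneic. For each gene, differences inside its own interval are not excluded by this design.

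**Figure D1:**
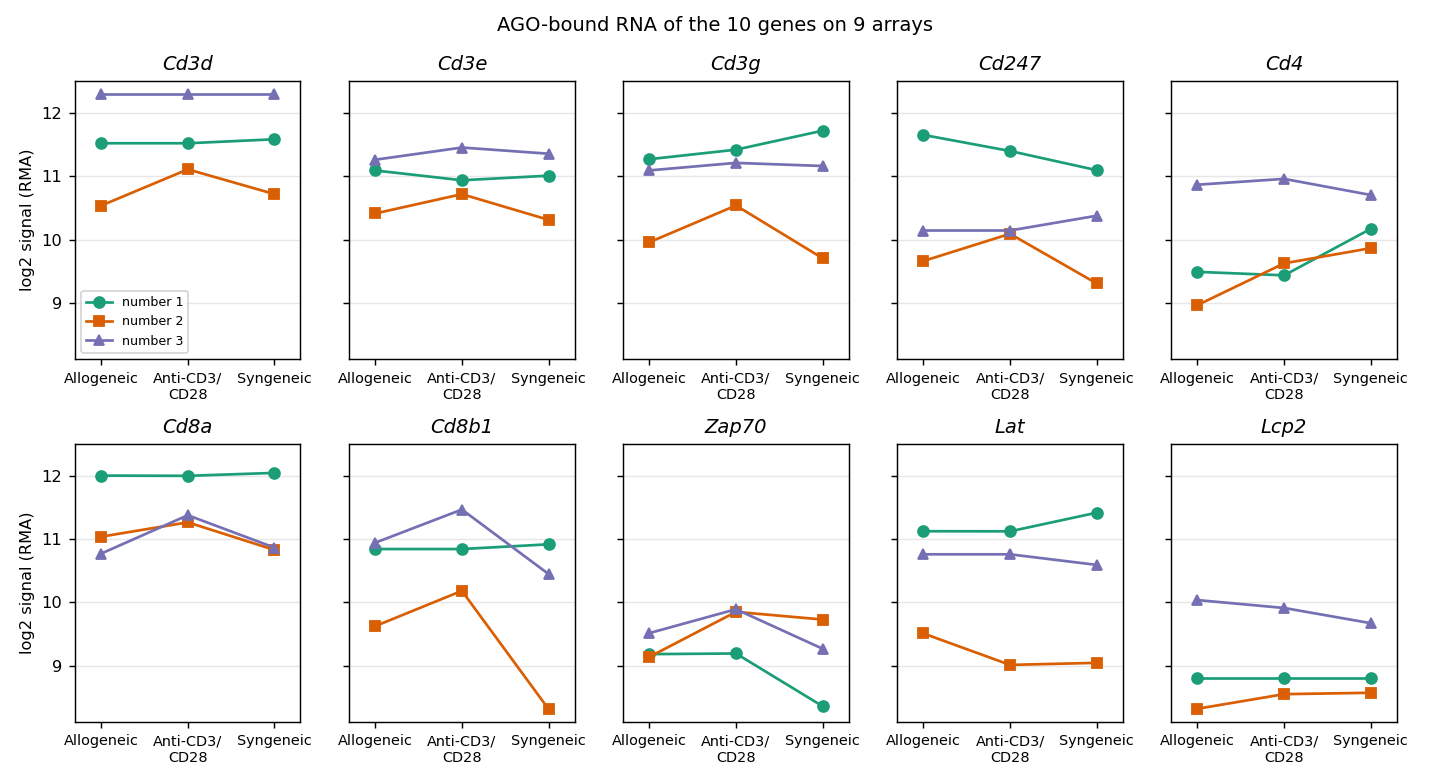
Log2 signal of the 10 receptor genes, 1 panel per gene, with each point 1 array placed by culture (allogeneic, anti-CD3/CD28, syngeneic) and coloured by replicate number, with lines joining arrays of one number. Points of one number lie closer to each other than to points of one culture in most panels, and the cultures overlap in all 10.

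The promoters of 3 CD3 genes are shown because these genes are neighbours on mouse chromosome 9. After each number's mean was subtracted, their signals correlated more closely than most member pairs, with the widest deviations in number 2, as given below. Pairs with genes of other chromosomes did so too, such as Cd3e with Cd8a (r = 0.77) and with Cd8b1 (r = 0.76). The part of the shared position in this was not tested. Cd3g and Cd3d lie head to head, with 854 bases between their windows. Each sequence runs from 250 bases before to 50 bases after the annotated start on the gene's own strand (RefSeq, build GRCm38.p6), with short motifs in capitals on either strand. The motifs searched were GGAA (or TTCC), the core of ETS factors, then GATA (or TATC) for the factors of that name, then TGTGGT (or ACCACA) for RUNX factors, and the E-box CAGCTG, which reads the same on both strands.
Cd3g, minus strand of chr9:44980382-44980681: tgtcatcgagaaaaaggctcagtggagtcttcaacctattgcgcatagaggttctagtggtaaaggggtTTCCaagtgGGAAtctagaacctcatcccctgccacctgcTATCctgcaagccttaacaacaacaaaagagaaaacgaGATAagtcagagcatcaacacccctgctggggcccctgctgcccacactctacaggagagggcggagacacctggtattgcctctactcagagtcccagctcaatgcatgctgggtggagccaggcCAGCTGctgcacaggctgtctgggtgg
Cd3d, plus strand of chr9:44981536-44981835: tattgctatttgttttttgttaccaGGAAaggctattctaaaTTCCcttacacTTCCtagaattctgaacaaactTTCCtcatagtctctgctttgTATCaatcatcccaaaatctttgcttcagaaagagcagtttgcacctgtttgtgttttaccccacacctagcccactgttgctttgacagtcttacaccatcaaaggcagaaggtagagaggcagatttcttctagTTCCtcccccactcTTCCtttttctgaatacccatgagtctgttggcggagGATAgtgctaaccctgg
Cd3e, minus strand of chr9:45009562-45009861: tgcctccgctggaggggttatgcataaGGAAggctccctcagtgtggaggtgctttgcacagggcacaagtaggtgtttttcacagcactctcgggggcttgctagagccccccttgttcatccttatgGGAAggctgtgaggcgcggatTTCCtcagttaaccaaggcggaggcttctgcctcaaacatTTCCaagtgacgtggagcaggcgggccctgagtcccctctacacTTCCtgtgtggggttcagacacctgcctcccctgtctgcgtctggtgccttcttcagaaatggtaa
The Cd3g window held 2 ETS cores, 2 GATA matches and 1 E-box, the Cd3d window 6 ETS cores and 2 GATA matches, and the Cd3e window 5 ETS cores. Such short letters are common: of 32851 promoter windows, 96.0% held the ETS core, 57.9% the GATA motif, 16.8% the RUNX motif and 16.3% the E-box on either strand. Over the 10 windows found for 8 of the 10 genes, 9 held the ETS core, 7 the GATA motif, 2 the RUNX motif and 3 the E-box, and 0 held TATAAA (or TTTATA), which 13.6% of all windows held. A match describes letters and not binding.

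The 4 CD3 and zeta genes had mean differences of no more than 0.28 in size (log2), and none kept one direction against syngeneic culture in all 3 numbers. Cd3e, whose product the stimulating antibody binds, stood at 11.09, 10.41 and 11.26 (log2 signal, numbers 1 to 3) in allogeneic, 10.94, 10.72 and 11.45 in anti-CD3/CD28, and 11.01, 10.31 and 11.36 in syngeneic culture. These 9 arrays spanned no more than 0.40 within any number, the narrowest of the 10 genes except Lcp2. Its difference was 0.03 ± 0.12 (SE) for allogeneic minus syngeneic, 0.14 ± 0.12 for anti-CD3/CD28 minus syngeneic and −0.11 ± 0.12 for allogeneic minus anti-CD3/CD28.

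Cd3d, which pairs with CD3ε, stood at 11.52, 10.54 and 12.30 in allogeneic, 11.52, 11.11 and 12.30 in anti-CD3/CD28, and 11.58, 10.72 and 12.30 in syngeneic culture. All 3 arrays of number 3 held the same value, so number 2 carried most of its spread. The differences were −0.08 ± 0.13, 0.11 ± 0.13 and −0.19 ± 0.13 (SE) in the 3 comparisons, taken in the same order as for Cd3e. Cd3g, the other partner of CD3ε, stood at 11.27, 9.96 and 11.09 in allogeneic, 11.42, 10.54 and 11.21 in anti-CD3/CD28, and 11.72, 9.71 and 11.16 in syngeneic culture. It was lower in allogeneic than in anti-CD3/CD28 culture in all 3 numbers, by 0.15, 0.58 and 0.12, and the mean difference of −0.28 ± 0.22 had an adjusted p of 0.928. Against syngeneic culture it was lower in number 1 and higher in number 2 in both activated cultures.

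Cd247, the zeta chain with the largest share of the receptor's tyrosine motifs, stood at 11.65, 9.66 and 10.15 in allogeneic, 11.40, 10.09 and 10.15 in anti-CD3/CD28, and 11.10, 9.31 and 10.38 in syngeneic culture. Both activated cultures were higher than syngeneic in numbers 1 and 2 and lower in number 3. The difference was 0.23 ± 0.22 for allogeneic and 0.28 ± 0.22 for anti-CD3/CD28 against syngeneic culture. When arrays or numbers were left out, the first ran from 0.06 to 0.47 and the second from 0.03 to 0.54. Its other 3 probe sets did not settle the sign: 1426079_at was lower in allogeneic than in syngeneic culture in all 3 numbers (−0.67 ± 0.30), while 1452539_a_at differed by 0.12 ± 0.26 and 1420716_at by −0.10 ± 0.14. For anti-CD3/CD28 minus syngeneic the 3 probe sets, in the same order, differed by −0.08 ± 0.30, 0.21 ± 0.26 and −0.17 ± 0.14.

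**Figure D2:**
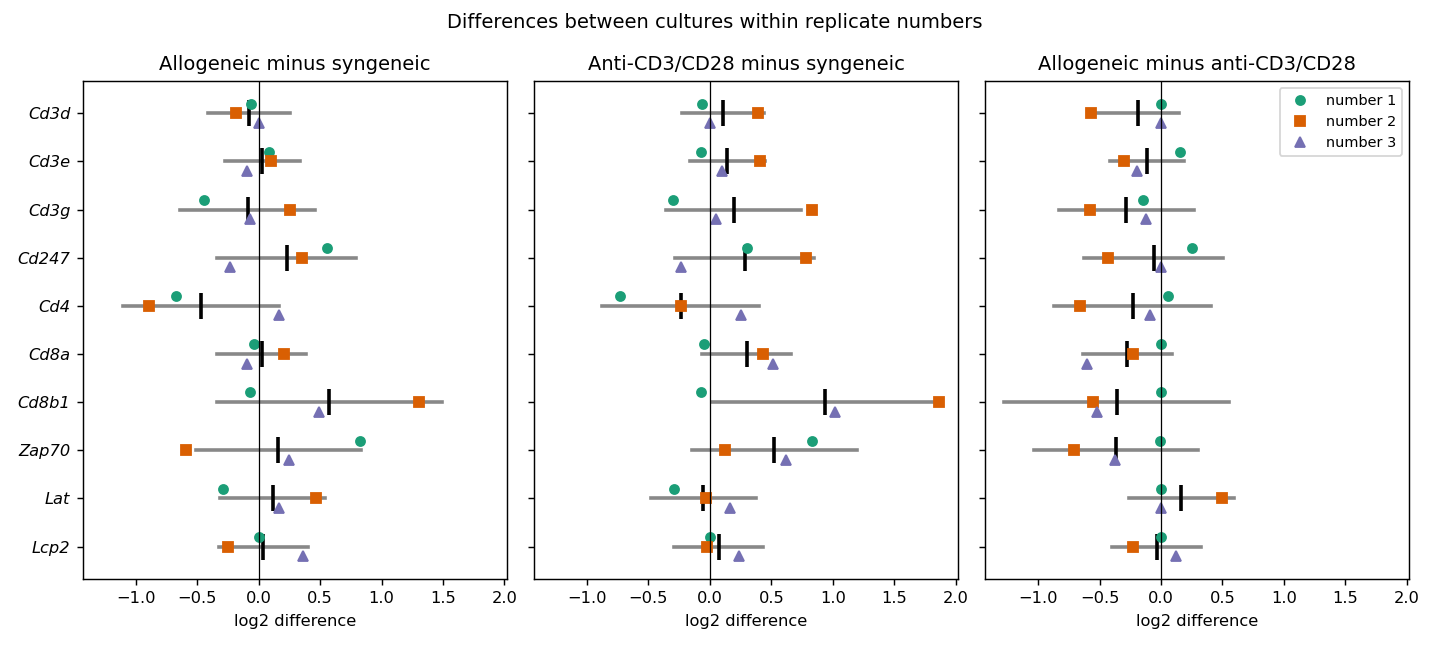
Log2 differences of the 10 genes in the 3 comparisons, with coloured markers for numbers 1, 2 and 3, a black tick for the mean difference and a grey bar for the 95% interval of the blocked fit. Of the 30 intervals, the one of Cd8b1 for anti-CD3/CD28 minus syngeneic leaves out 0.

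Among the coreceptors, Cd8b1 had the largest mean difference from syngeneic culture of the 10 genes in both comparisons. Cd8b1 encodes CD8β, the chain that with CD8α forms the coreceptor of class I restricted T cells. It stood at 10.84, 9.63 and 10.94 in allogeneic, 10.84, 10.18 and 11.46 in anti-CD3/CD28, and 10.92, 8.32 and 10.45 in syngeneic culture. The syngeneic array of number 2 was the lowest of the 9, and number 1 was nearly level across the cultures. Anti-CD3/CD28 minus syngeneic was 0.94 ± 0.36 (log2, 95% interval 0.02 to 1.85, or 1.91-fold with an interval of 1.01 to 3.60), with −0.07, 1.86 and 1.02 in numbers 1 to 3 and an adjusted p of 0.727. Without number 2, whose arrays carried the stromal transcripts, this difference was 0.47, and without number 1 it was 1.44. Allogeneic minus syngeneic was 0.58 ± 0.36 (−0.07, 1.31 and 0.49), which became 0.21 without number 2 and 0.90 without number 1. Leaving out single arrays moved it furthest for the syngeneic ones, to 0.16 without that of number 2 and 0.99 without that of number 1.

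Cd8a encodes CD8α, and its brightest probe set stood at 12.00, 11.04 and 10.77 in allogeneic, 12.00, 11.26 and 11.37 in anti-CD3/CD28, and 12.04, 10.83 and 10.86 in syngeneic culture. Anti-CD3/CD28 was the highest of the 3 in numbers 2 and 3 and level with the others in number 1. The difference from syngeneic culture was 0.30 ± 0.14 for anti-CD3/CD28 (adjusted p = 0.729 by limma) and 0.02 ± 0.14 for allogeneic. A dimmer Cd8a probe set, 1451673_at, was also highest in anti-CD3/CD28 culture in numbers 2 and 3, at 8.70, 8.15 and 11.09 in allogeneic, 8.77, 8.95 and 11.79 in anti-CD3/CD28, and 8.82, 7.68 and 10.50 in syngeneic culture. Its difference of 0.84 ± 0.29 between anti-CD3/CD28 and syngeneic culture came from numbers 2 and 3 (1.28 and 1.29) and was −0.06 in number 1. For allogeneic minus syngeneic it differed by 0.31 ± 0.29, with 0.59 in number 3, where the brightest probe set was at −0.09. The remaining Cd8a probe sets differed from syngeneic culture by −0.12 ± 0.17 in allogeneic and 0.15 ± 0.17 in anti-CD3/CD28 (1444078_at), by −0.19 ± 0.23 and −0.29 ± 0.23 (1440811_x_at), and by −0.21 ± 0.15 and 0.05 ± 0.15 (1440164_x_at). Of the 5 Cd8a probe sets, 4 were higher in anti-CD3/CD28 than in syngeneic culture and 2 were higher in allogeneic than in syngeneic culture.

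Cd4 was the gene with the most negative mean difference from syngeneic culture, and its probe sets disagreed. The brightest, 1419696_at, stood at 9.49, 8.97 and 10.87 in allogeneic, 9.44, 9.63 and 10.96 in anti-CD3/CD28, and 10.17, 9.87 and 10.71 in syngeneic culture. Both activated cultures were lower than syngeneic in numbers 1 and 2 and higher in number 3. The difference was −0.47 ± 0.25 for allogeneic (95% interval −1.11 to 0.17, adjusted p = 0.709 by limma) and −0.24 ± 0.25 for anti-CD3/CD28. The allogeneic value was −0.79 without number 3 and −0.26 without number 2, and the anti-CD3/CD28 value 0.01 without number 1. The other, 1427779_a_at, stood at 6.01, 7.57 and 8.51 in allogeneic, 5.93, 7.37 and 8.93 in anti-CD3/CD28, and 6.12, 6.94 and 7.42 in syngeneic culture. Its differences were positive, 0.54 ± 0.33 for allogeneic and 0.58 ± 0.33 for anti-CD3/CD28 against syngeneic culture, so the direction for Cd4 depended on the probe set. Cd4 is also carried by some macrophages and dendritic cells, whose marker levels moved between these cultures as given above. The part of such cells in the Cd4 signal was not tested.

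Zap70 was the only one of the 10 genes with the same direction against syngeneic culture in all 3 numbers, and only for anti-CD3/CD28. Its brightest probe set, 1440178_x_at, whose suffix marks probes that may also match other genes, stood at 9.19, 9.14 and 9.52 in allogeneic, 9.20, 9.85 and 9.89 in anti-CD3/CD28, and 8.36, 9.73 and 9.27 in syngeneic culture. Anti-CD3/CD28 minus syngeneic was 0.52 ± 0.27 (0.83, 0.12 and 0.62), with an adjusted p of 0.729. It was 0.28 without the syngeneic array of number 1 and 0.81 without that of number 2. For allogeneic minus syngeneic, number 2 went the other way (0.82, −0.59 and 0.25) and the mean was 0.16 ± 0.27. Allogeneic culture was lower than anti-CD3/CD28 in all 3 numbers, by 0.01, 0.71 and 0.38.

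The second Zap70 probe set, 1422701_at, carried no such suffix and had larger differences. It stood at 7.52, 6.60 and 8.59 in allogeneic, 7.88, 7.66 and 8.74 in anti-CD3/CD28, and 6.40, 6.02 and 7.87 in syngeneic culture. Both activated cultures were higher than syngeneic in every number. The difference was 0.81 ± 0.22 for allogeneic (1.11, 0.59 and 0.72) and 1.33 ± 0.22 for anti-CD3/CD28 (1.48, 1.64 and 0.87), with adjusted p-values of 0.747 and 0.736 over all 34945 probe sets in limma. Leaving out each number in turn kept the first between 0.66 and 0.92 and the second between 1.17 and 1.56. The last probe set, 1439749_at, lay close to the array medians, at 4.50 to 5.98, and its difference was −0.03 ± 0.16 for allogeneic and 0.21 ± 0.16 for anti-CD3/CD28 minus syngeneic. The contrast between 1422701_at and the brightest probe set was read after both were seen, and was given no test.

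**Figure D3:**
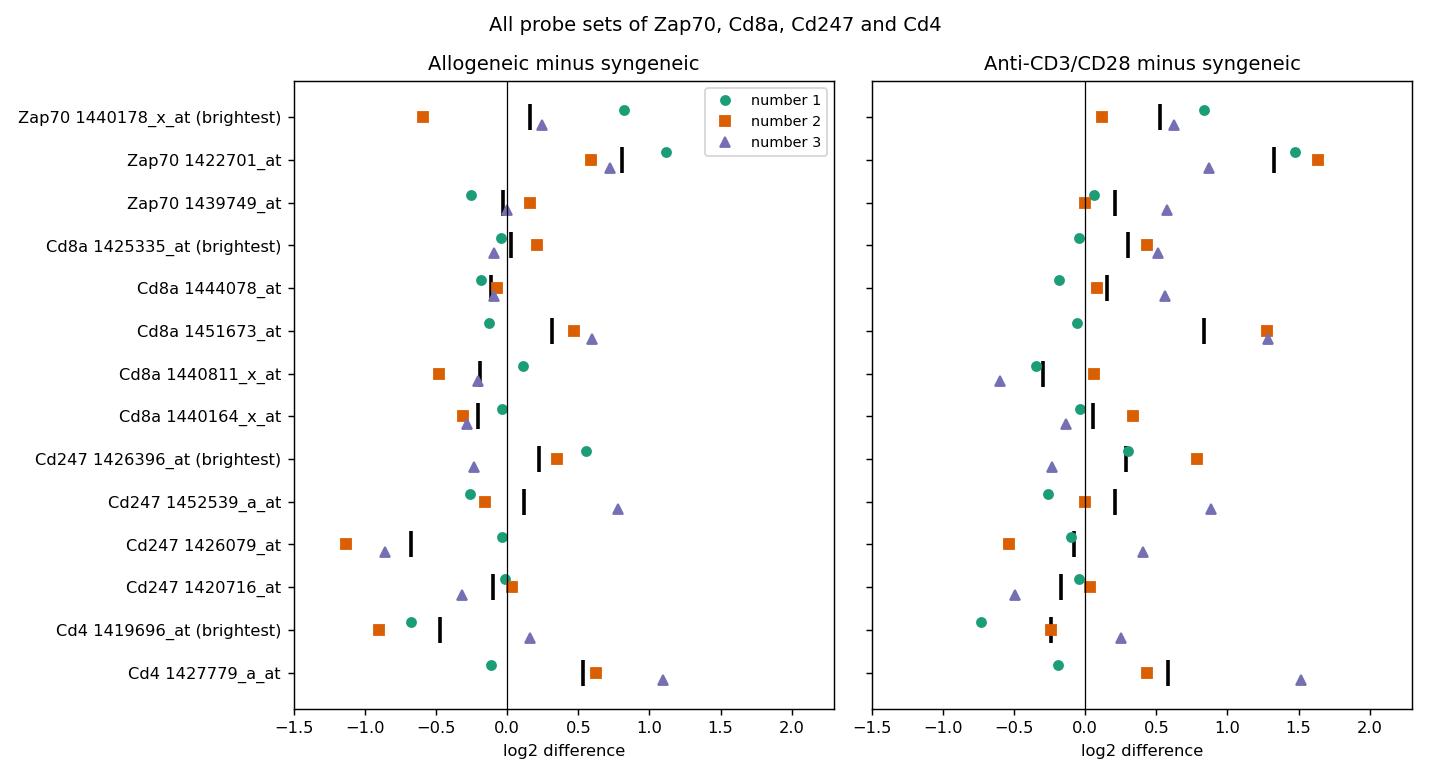
Log2 differences within numbers 1 to 3 (coloured markers) and their mean (black tick) for all probe sets of Zap70, Cd8a, Cd247 and Cd4, with allogeneic minus syngeneic on the left and anti-CD3/CD28 minus syngeneic on the right. The Zap70 probe set 1422701_at lies right of 0 in every number, and the means of the Cd4 probe sets lie on opposite sides of 0.

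The adaptors Lat and Lcp2 had mean differences of no more than 0.17 in size (log2), and neither kept one direction in all 3 numbers. Lat, the membrane scaffold that ZAP70 phosphorylates, stood at 11.12, 9.51 and 10.76 in allogeneic, 11.12, 9.02 and 10.76 in anti-CD3/CD28, and 11.41, 9.05 and 10.59 in syngeneic culture. The differences were 0.11 ± 0.17, −0.05 ± 0.17 and 0.17 ± 0.17 (SE) for allogeneic minus syngeneic, anti-CD3/CD28 minus syngeneic and allogeneic minus anti-CD3/CD28. Lcp2, the cytosolic adaptor recruited to LAT, stood at 8.81, 8.33 and 10.04 in allogeneic, 8.81, 8.56 and 9.91 in anti-CD3/CD28, and 8.81, 8.58 and 9.67 in syngeneic culture. Its 3 arrays of number 1 were equal, and no number spanned more than 0.36. The dim second Lcp2 probe set, 1418642_at, was above the array median on 4 of 9 arrays, and its differences were 0.00 ± 0.07, −0.04 ± 0.07 and 0.04 ± 0.07 in the same 3 comparisons. Of the variance of both genes, 96.7% lay between replicate numbers, against 47.5% for Zap70, the lowest of the 10. Culture accounted for 24.2% of the variance of Zap70 and 18.9% of that of Cd8b1, the highest of the 10, and for 0.24% in Lcp2.

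As a group, the 10 genes leaned to higher values in anti-CD3/CD28 culture than in the other cultures, to an extent set by numbers 2 and 3. For anti-CD3/CD28 minus syngeneic, 8 were higher and 2 lower, with a median difference of 0.17 against 0.00 over all genes, of which 48.9% were higher. In number 1 only 2 were higher and 7 lower, and without number 1 all 10 were higher; without number 2 they split 6 and 4, with a median of 0.02. For allogeneic minus anti-CD3/CD28, 1 was higher (Lat) and 9 lower, with a median of −0.21 against 0.04 over all genes, of which 61.2% were higher. Here number 1 gave 5 higher, 2 lower and 3 equal, number 2 gave 1 and 9, and without number 2 the count was 3 higher, 6 lower and 1 equal with a median of −0.02. For allogeneic minus syngeneic, 7 were higher and 3 lower with a median of 0.03. Over all genes the median was also 0.03, and 56.2% were higher. Without number 2 the members split 4 and 6 in this comparison. These 3 comparisons share arrays and are not independent of each other. The lean was shared by the 7 measured T cell markers. In anti-CD3/CD28 minus syngeneic, 5 of these were higher and 2 lower, with a median of 0.31 (−0.19, 0.52 and 0.55 in numbers 1 to 3). In allogeneic minus anti-CD3/CD28, 2 were higher and 5 lower, with a median of −0.21.

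Few members kept one direction across numbers. The members with one direction in all 3 numbers were 0 for allogeneic minus syngeneic (7.29% of all genes were higher throughout and 7.96% lower), 1 higher for anti-CD3/CD28 minus syngeneic (Zap70, against 7.8% of genes higher and 9.15% lower) and 2 lower for allogeneic minus anti-CD3/CD28 (Cd3g and Zap70, against 2.58% lower and 4.39% higher). Equal values count as no direction, and they were rarer among the members (11.1% of pairs) than over all genes (29.1%). The shares are therefore not like for like. For Zap70, the allogeneic minus anti-CD3/CD28 value in number 1 was −0.01, between the nearly alike arrays. No member had cultures whose arrays did not overlap. Over all genes such a gap was found in 0.192% (higher) and 0.451% (lower) for allogeneic minus syngeneic, 0.412% and 1.52% for anti-CD3/CD28 minus syngeneic, and 0.269% and 0.055% for allogeneic minus anti-CD3/CD28. The median size of a member's difference was 0.10, 0.22 and 0.21 in the 3 comparisons, against 0.138, 0.127 and 0.109 over all genes. Exactly equal values, rarer among the members, also enter these medians, so the sizes are not like for like either.

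The CD3 genes correlated over the 9 arrays, with their widest deviations in number 2. After each number's mean was subtracted, the 3 pairs among Cd3d, Cd3e and Cd3g correlated at r = 0.73 to 0.76 over the 9 arrays, and the 3 pairs of these genes with Cd247 ran from 0.42 to 0.75. Pairs of these 4 genes with Cd8a or Cd8b1 ran from 0.32 to 0.77. With Lat they ran from −0.57 to 0.02, and with Cd4 from −0.48 to 0.48. Over all 45 pairs of the 10 genes, 35 were positive with a median of 0.32, and Cd8a with Cd8b1 was the highest (0.79). For Cd3d, Cd3e, Cd3g and Cd247, the anti-CD3/CD28 array of number 2 lay farthest from its number's mean. It was 0.32, 0.24, 0.47 and 0.40 above that mean (log2). The other numbers did not each repeat the pattern. In number 1 Cd3e deviated by 0.08, −0.08 and −0.003 in allogeneic, anti-CD3/CD28 and syngeneic culture. Cd3g there deviated by −0.20, −0.05 and 0.25, and Cd3d was equal on all arrays of number 3. These values describe 9 arrays that share numbers and, within a number, exactly equal values, and they carry no test. By the same measure, over 9081 genes with a mean signal above the median, the profiles most like the mean of the CD3 and zeta genes were Rttn, Arpc2 and Cnot2 (each r = 0.98) and Snx4 (0.97). Those most like the mean of Cd8a and Cd8b1 were Ppp3cc, Ptcd3 and Adi1 (each r = 0.98), Rasgrp1 and Qtrt1 (each 0.97). For Cd4 they were Mta3 (r = 0.99), Mterf3, Unk, Slc35c1 and Tmem81 (each 0.98), and for the mean of Zap70, Lat and Lcp2 they were Chtf8 and Tbl3 (each r = 0.98), Frrs1, Prkca and Ddx49 (each 0.97).

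Other genes around the receptor were set beside the 10, and 0 passed the adjusted threshold. For the counts of each list below, 56.2% of all genes were higher in allogeneic and 48.9% in anti-CD3/CD28 than in syngeneic culture. The list of receptor partners on the cell surface shares Cd2, Cd5, Cd6, Cd28 and Thy1 with the T cell markers above. Of its 7 measured genes, 5 were higher in allogeneic and 6 in anti-CD3/CD28 than in syngeneic culture, with medians of 0.07 and 0.64. In number 1 both medians were −0.14, while anti-CD3/CD28 had 0.57 in number 2 and 0.55 in number 3. Cd6, a scavenger receptor family member that tunes receptor signals, was higher in both, by 0.44 ± 0.14 (0.62, 0.11 and 0.58 in numbers 1 to 3) and 0.64 ± 0.14 (0.69, 0.52 and 0.72). Cd5, a related inhibitory receptor, differed by 0.74 ± 0.32 for anti-CD3/CD28 minus syngeneic, from numbers 2 and 3 (1.26 and 1.20) and −0.26 in number 1. Cd28, the costimulatory receptor that one of the antibodies binds, was lower in allogeneic than in anti-CD3/CD28 culture by 0.98 (SE 0.34), with 0.02, −1.40 and −1.57 in numbers 1 to 3. Trac, Trbc1, Trbc2 and Lck were not analysed here.

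Kinases and effectors next to the receptor split by gene. Csk, the kinase that restrains LCK, was higher in both activated cultures in every number, by 0.75 ± 0.20 for allogeneic and 0.67 ± 0.20 for anti-CD3/CD28. Pik3r1, the regulatory subunit of phosphoinositide 3-kinase, was lower in both, by 0.66 (SE 0.21) and 0.73 (SE 0.21), and its syngeneic arrays lay above all 6 others. Tec, a TEC family kinase, differed by −0.56 ± 0.24 and −0.61 ± 0.24. Of 7 measured proximal kinases, 1 and 4 were higher in allogeneic and anti-CD3/CD28 than in syngeneic culture, with medians of −0.31 and 0.02. Among 17 measured adaptors and effectors, 4 and 6 were higher, with medians of −0.17 and −0.12. Plcg1, the phospholipase that LAT and SLP76 recruit, differed by −0.48 ± 0.11 and −0.29 ± 0.11, and Fyb, an adaptor that binds SLP76, by −0.52 ± 0.17 and −0.48 ± 0.17, in each case below syngeneic culture in every number. Sh2d2a, an adaptor that binds LCK, differed by 0.57 ± 0.22 and 0.54 ± 0.22. Themis, an adaptor of thymocyte selection, was 0.82 lower (SE 0.40) in allogeneic than in anti-CD3/CD28 culture.

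Of 15 negative regulators, 4 were higher in allogeneic and 5 in anti-CD3/CD28 than in syngeneic culture, with medians of −0.06 and −0.08. Ubash3b, a phosphatase that acts on ZAP70, differed by −0.42 ± 0.16 and −0.44 ± 0.16. Ptpn6, the phosphatase SHP-1, differed by 0.24 ± 0.16 and 0.51 ± 0.16. Of 10 genes that receptor signals are known to induce, 8 were higher in allogeneic and 9 in anti-CD3/CD28 than in syngeneic culture, with medians of 0.51 and 0.36. Number 2 went the other way for allogeneic culture, with 3 higher, 6 lower and 1 equal and a median of −0.24, against medians of 0.84 in number 1 and 0.41 in number 3. For anti-CD3/CD28 the medians in numbers 1 to 3 were 0.75, 0.18 and 0.32. Il2ra, the high-affinity chain of the interleukin-2 receptor, was higher in every number in both cultures, by 0.66 ± 0.11 (0.87, 0.59 and 0.53) and 0.41 ± 0.11 (0.69, 0.28 and 0.25). Il2 was 2.08 ± 0.69 higher in allogeneic than in syngeneic culture (2.04, 0.87 and 3.31), and its allogeneic minus anti-CD3/CD28 difference was 0.00 in number 1 against 1.99 and 2.35 in numbers 2 and 3. Nr4a1, an early gene used as a readout of receptor signals, was 1.45 ± 0.54 higher in anti-CD3/CD28 culture (0.60, 1.59 and 2.15), with no overlap of the arrays, and 0.63 ± 0.54 higher in allogeneic culture, where number 2 was −0.53. Myc differed by 0.59 ± 0.25 and 0.90 ± 0.25. All of these genes had adjusted p-values of 0.684 or more in limma.

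**Figure D4:**
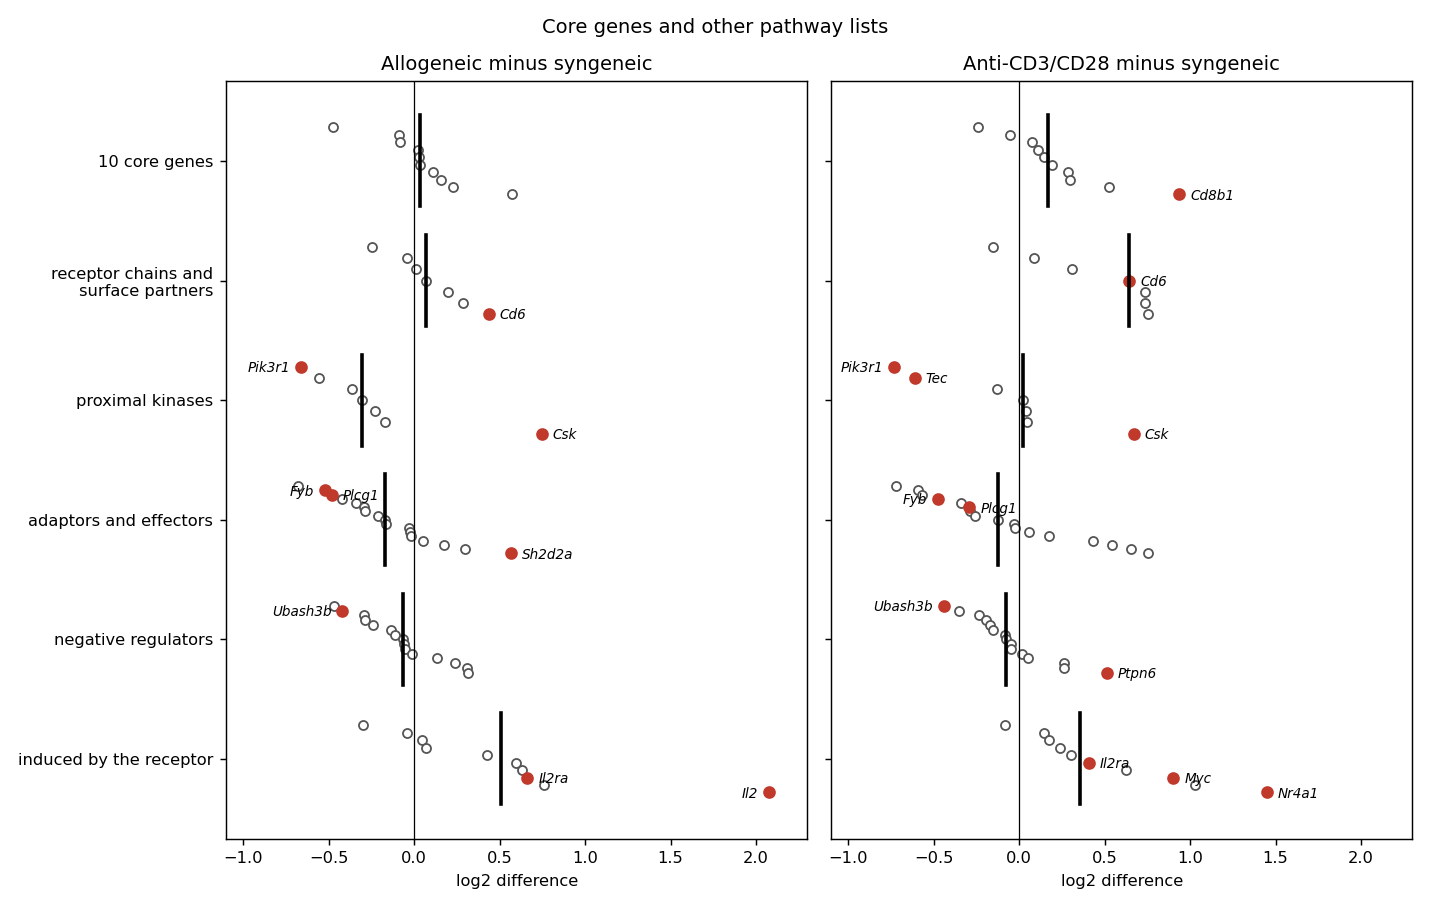
Log2 differences of the 10 core genes and of 5 other lists of receptor pathway genes, allogeneic minus syngeneic on the left and anti-CD3/CD28 minus syngeneic on the right. Each circle is 1 gene, filled where its unadjusted p was under 0.05, and black bars are list medians, which for the induced genes stand at 0.51 and 0.36.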

How the data were processed

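The deposited values are log2 signals per probe set, made by the authors with RMA (robust multi-array average), per the submitters' processing notes (software, version and grouping of arrays: not given in the sources used here). Array medians were 4.58 to 5.67. Of 45101 probe sets, 64 controls, 932 listed for several genes and 9160 without a gene were left out. Symbols come from the platform annotation, updated by gene ID for 34741 probe sets, and each of 18193 genes was represented by its brightest probe set.

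Cultures were compared in limma 3.58.1 under R 4.3.3 (moderated test, intensity trend, all 9 arrays, Benjamini-Hochberg over all genes, threshold 0.05), with the replicate number as a fixed block. Arrays with the same number deviated together from their group means (r of 0.811 to 0.921 in 9 pairs), so the numbers were taken to pair the arrays. Pairs that differ in number and group had r of −0.597 to −0.165, but subtracting group means itself pushes these below 0. Equal values within a number would also raise the first r, so shared source and shared processing are not told apart. The fit was also run on simulated data with known shifts added. That simulation used independent noise without exactly equal values, so it does not show what the test would miss in these arrays.

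The 10 genes, the pathway lists and the marker lists were chosen with earlier results of these data known. Besides the 10, named genes were drawn from up to 4 per pathway list and comparison with the smallest unadjusted p, the marker with the largest difference or under the array median, and the 5 genes of likest profile (predicted genes not named). Col1a2, the gap between Zap70 probe sets and leave-one-number counts of genes were picked after seeing the data. Alternatives covered the block, normalization, choice of probe set, a filter on dim probe sets and each array or number left out. The number of arrays limits the precision.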

Additional observations from a re-analysis of the deposited data

How the results depend on the processing

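Each difference of the 10 genes was recomputed under 21 alternatives: 9 that leave out an array, 3 that leave out a number and 9 others. None brought a receptor gene under the adjusted threshold (lowest adjusted p 0.227, highest 1). Without the replicate block, 0 genes were called in each comparison and all 30 differences of the receptor genes had an adjusted p of 1. With the number as a random block, 1 gene was called for allogeneic minus syngeneic and 30 for anti-CD3/CD28 minus syngeneic; with each array centred on its median, 1 was called for anti-CD3/CD28 minus syngeneic. No other alternative called a gene, and leaving out arrays or numbers gave 0 throughout.

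Signs turned for 9 of 270 values outside the leave-outs. Averaging all probe sets gave −0.11 for Cd247, 0.032 for Cd4 and −0.036 for Cd8a (allogeneic minus syngeneic), 0.17 for Cd4 (anti-CD3/CD28 minus syngeneic) and 0.0019 for Lcp2 (allogeneic minus anti-CD3/CD28). Centring gave −0.0027 for Cd3e and −0.0081 for Cd8a (allogeneic minus syngeneic) and 0.060 for Lat (anti-CD3/CD28 minus syngeneic), and quantile normalization gave 0.0058 for Lat there. The cause was not tested.

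Leaving out arrays or numbers turned 15 of 30 differences. For allogeneic minus syngeneic the ranges were −0.15 to 0.039 for Cd3d, −0.054 to 0.091 for Cd3e, −0.33 to 0.12 for Cd3g, −0.069 to 0.14 for Cd8a, −0.17 to 0.53 for Zap70 (the same for its probe set 1440178_x_at, and −0.13 to 0.081 for 1439749_at), −0.063 to 0.32 for Lat and −0.13 to 0.18 for Lcp2. For anti-CD3/CD28 minus syngeneic they were −0.056 to 0.20 for Cd3d, −0.13 to 0.44 for Cd3g, −0.52 to 0.0075 for Cd4, −0.16 to 0.11 for Lat and −0.051 to 0.17 for Lcp2. For allogeneic minus anti-CD3/CD28 they were −0.22 to 0.16 for Cd247, −0.0044 to 0.31 for Lat and −0.16 to 0.086 for Lcp2. Leave-outs of whole numbers for counts and Zap70 probe sets were chosen after seeing the data.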
